A study of Rattus norvegicus with 10 samples.

Results

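The sites described here are places in the genome of RCS cells where SOX6 was mapped next to an active histone mark, without SOX9 and without the usual mark of a promoter. They were chosen by measured peak positions: a SOX6 peak was kept when it shared at least 1 bp with an H3K27ac peak and none with a SOX9 or an H3K4me3 peak. Of 19355 SOX6 peaks, 3075 (15.9%) met this rule. They are referred to below as SOX6-only acetylated sites. All samples came from 1 line, RCS, which was established from a rat chondrosarcoma and for which the labels name no treatment, so the data describe a tumour line in culture and not normal cartilage. Chromatin immunoprecipitation with sequencing was done with antibodies to SOX6 (ab30455), SOX9 (AB5535), H3K27ac (ab4729), H3K4me1 (ab8895), H3K4me3 (ab8580) and H3K9me3 (ab8889), and 4 further libraries were inputs without antibody. Each antibody gave 1 library, so no value has a replicate error.

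SOX6 and SOX9 bind DNA through an HMG box, a domain that contacts the minor groove and bends the helix. SOX9 switches on cartilage matrix genes and carries its own activation domain. SOX6 has none and pairs through a coiled coil with itself or with SOX5, and these proteins work beside SOX9 in chondrocytes. H3K27ac is laid down at active enhancers and promoters, H3K4me1 mainly at enhancers, H3K4me3 mainly at active promoters, and H3K9me3 in silent heterochromatin. An acetylated site that lacks H3K4me3 therefore has the marks usually found at an enhancer away from a promoter. Whether a SOX9 protein also sat at these sites at a level under the lowest deposited score cannot be read from peak lists. No sequence and no gene name is given, because the peaks are on rn5 and no genome or annotation of that build was used here.

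The rule acted in 3 steps. Of the SOX6 peaks, 10812 (55.9%) shared no base with a SOX9 peak, and 6649 of those met H3K27ac. H3K4me3 was present at 3574 of the 6649, which left the 3075 sites, or 46.2%. The rule gave 1772 sites with every list above its median score and 1172 with the SOX6 list above it. In the first setting SOX9 and H3K4me3 peaks of lower score no longer exclude a site. The 1772 can therefore include peaks that are not among the 3075. Among all 7362 SOX6 peaks with H3K27ac and without H3K4me3, the SOX6-only sites were 41.8%, and the other 4287 also met SOX9 and are called shared acetylated sites below. Further classes set beside them are 1899 SOX9-only acetylated sites without H3K4me3, 3574 SOX6-only acetylated sites with H3K4me3, and 3910 SOX6-only sites with neither H3K27ac nor H3K4me3.

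The SOX6-only acetylated sites had low to middling SOX6 scores. Each peak carries a score that the authors deposited, whose scale is not given, so it was used only to order peaks within a list. The median was 85.5 with quartiles of 62.6 and 137, against 104 over all SOX6 peaks and 202 at shared acetylated sites. The SOX6 peaks were divided by score into 5 groups of nearly equal number, called quintiles. The sites made up 17.8% of the lowest quintile, 21.3% of the second, 19.9% of the third, 14.9% of the fourth and 5.50% of the highest. Shared acetylated sites went the other way, from 7.34% of the lowest to 42.6% of the highest quintile. The sites were also narrower, with a median width of 415 bp (quartiles 300 and 569 bp) against 549 bp at shared ones. SOX6 peaks alone with H3K4me3 had scores and widths close to these, with medians of 88.4 and 440 bp. These values belong to the lists the rule used and are a description.

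High scores without SOX9 did occur. The highest-scoring site lay at chr11:75395680-75396506 (rn5, as all positions here), with a score of 1162. It was 827 bp wide, lay wholly inside an H3K27ac peak of 1963 bp, met an H3K4me1 peak with a score of 1723, and stood 54.6 kb from the nearest SOX9 peak, whose own score was 74.3. The second, chr11:91382416-91383591, scored 963 and was 46.0 kb from SOX9. Both carried H3K27ac and H3K4me1 and stood 46.0 kb or more from any SOX9 peak.

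The next sites differed in how near SOX9 lay. The third, chr4:221294253-221294849, scored 958 and stood 1.12 kb from a SOX9 peak with a score of 2439, inside an H3K27ac peak of 4567 bp. The fifth, chr5:63693150-63693897, scored 875 and had a SOX9 peak with a score of 83.6 only 457 bp away. The fourth, chr10:108697306-108697876, scored 916 at 33.9 kb from SOX9, in a narrow H3K27ac peak of 788 bp with a low score of 143, but with an H3K4me1 score of 3173. So a high SOX6 score came with a near SOX9 peak at some sites and a distant one at others.

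The remaining 5 of the 10 highest had scores from 814 to 859. Those at chr3:28076243-28076764 and chr13:73401236-73402094 lay 5.36 and 1.87 kb from SOX9 inside H3K27ac peaks of 5062 and 6726 bp. Those at chr16:59323264-59324443 and chr11:28207613-28208422 lay 16.5 and 10.5 kb away. The site at chr1:268133727-268133932 was the exception among the 10: it was 206 bp wide and had no H3K4me1 peak. Of the 10 sites, 9 met H3K4me1, 0 met H3K9me3, 5 had a SOX9 peak within 12500 bp and 2 had none within 50 kb.

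A SOX9 peak lay within 12500 bp of 1489 sites (48.4%) without touching them. Distance was measured as the gap between the nearest edges. The median gap to SOX9 was 13.5 kb, with quartiles of 2.69 and 45.3 kb. It was 24.5 kb with every list above its median score and 21.1 kb among sites with no SOX9 peak within 1 kb. The first setting leaves fewer SOX9 peaks to measure to, and the second removes the sites nearest to SOX9. A SOX9 peak lay under 1 kb away at 494 sites (16.1%), 1 to 5 kb away at 516 (16.8%) and from 5 kb to 12500 bp away at 479 (15.6%). At 876 (28.5%) it lay from there to 50 kb away, at 333 (10.8%) 50 to 100 kb away, and at 377 (12.3%) at least 100 kb away. The rule itself used SOX9 peaks, so these values carry no test.

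**Figure D1:**
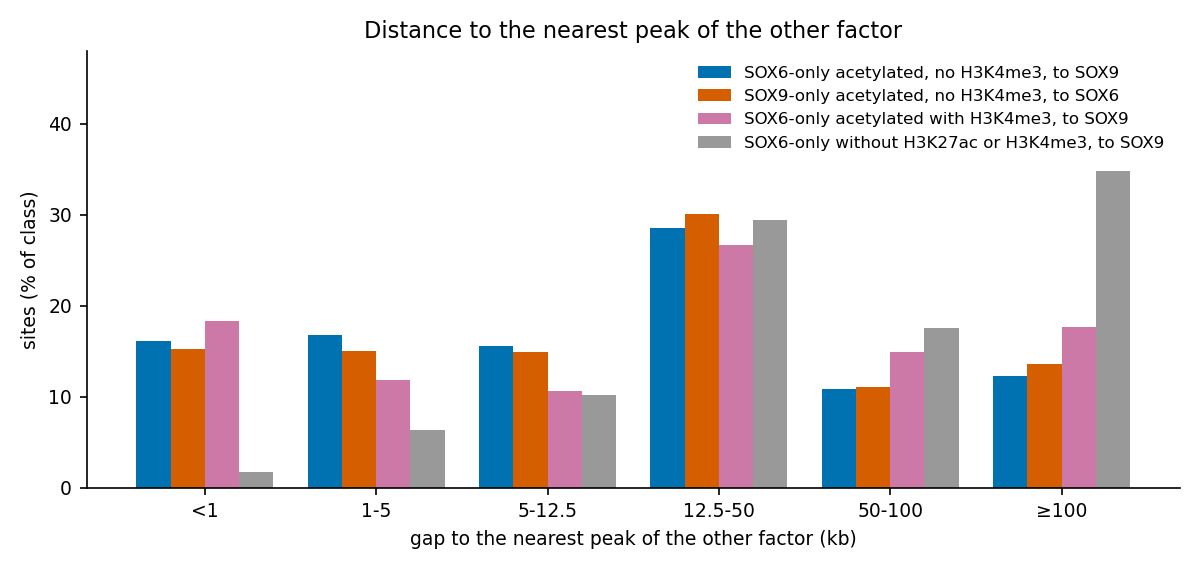
Share of sites (vertical axis, percent of each class) by gap in kb to the nearest peak of the other factor, for 4 classes of site in bars of different colour. SOX6-only acetylated sites without H3K4me3 and the mirror class of SOX9-only sites have bars of nearly equal height in every range, while 34.8% of SOX6-only sites with neither H3K27ac nor H3K4me3 lie 100 kb or more from SOX9.

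The mirror class gave nearly the same distances. SOX9-only acetylated sites without H3K4me3 had a median gap of 16.1 kb to the nearest SOX6 peak (quartiles 3.12 and 49.6 kb), and 15.3% of them had one under 1 kb away. SOX6-only acetylated sites with H3K4me3 had a median gap of 21.7 kb to SOX9, and 18.3% were under 1 kb from it. SOX6-only sites without H3K27ac or H3K4me3 lay much farther out, at a median of 54.8 kb, with 1.74% under 1 kb and 34.8% at 100 kb or more.

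The SOX9 peaks beside the sites were mostly peaks that SOX6 shared. For the 1489 sites with a SOX9 peak within 12500 bp, the nearest one was shared with SOX6 in 1097 cases (73.7%) and carried H3K27ac in 1411 (94.8%). Over all SOX9 peaks these shares were 56.3% and 80.2%. The median SOX9 score was 136 at these nearest peaks and 90.3 over all SOX9 peaks. The rule puts every site on H3K27ac, and at 589 sites a SOX9 peak lay on the same H3K27ac peak. The H3K27ac share is therefore a description and carries no test. The 1489 sites had only 1313 different SOX9 peaks as neighbours, so some peaks were counted more than once. By range, the share of nearest SOX9 peaks that were shared went from 81.8% under 1 kb to 65.1% between 5 kb and 12500 bp and 55.4% at 100 kb or more. The SOX6 score of the sites themselves had medians of 78.7 under 1 kb, 78.8 at 1 to 5 kb, 86.8 from there to 12500 bp, 89.0 from there to 50 kb, 94.8 at 50 to 100 kb and 86.8 at 100 kb or more.

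Few peaks stood at the edge of the SOX9 criterion on the excluded side, and more on the kept side. A SOX9 peak was closer than 100 bp at 132 of the sites and closer than 500 bp at 367. Among shared acetylated sites, 25 overlapped SOX9 by less than 100 bp, and the least overlap was 19 bp. The closest kept site, chr8:49034967-49035208, had a score of 71.3 and a gap of 7 bp to a SOX9 peak with a score of 262. At chr6:2737873-2738225 (score 75.6), chr15:54322724-54323223 (89.2) and chr11:93039783-93040360 (83.5) the gaps were 10, 13 and 15 bp. The site at chr18:71091054-71091619 had a higher score, 382, and lay 14 bp from a SOX9 peak with a score of 1828. The excluded peak with 19 bp of overlap, chr17:37955414-37955810, had a SOX6 score of 90.7 beside a SOX9 peak with 567. The next excluded peaks by overlap, chr1:225323618-225323817 and chr10:45994579-45995211, had SOX6 scores of 54.7 and 161, against 71.3 to 382 at the 5 kept sites.

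The 5 sites farthest from SOX9 were exceptions in lacking H3K4me1, which met 349 of the 377 sites (92.6%) at 100 kb or more. The farthest, chrX:53806954-53807217, had a SOX6 score of 53.1 and a gap of 3978 kb. Those at chr15:69310522-69310868, chr15:98710427-98710840, chr8:10102313-10102578 and chrX:31529062-31529374 had gaps of 2412, 1587, 1134 and 1071 kb and SOX6 scores of 58.4, 113, 59.5 and 128. None of these 5 met an H3K4me1 peak. Their H3K27ac peaks had scores from 72.9 to 506, and 4 of the 5 lay under the median of 332 over that list.

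The acetylated peaks that held the sites were wider than the median of 1212 bp over the H3K27ac list, but narrower than those under shared sites. The 3075 sites lay on 2944 H3K27ac peaks, whose width had a median of 1611 bp and whose score had a median of 506, while the peaks under shared acetylated sites had medians of 2222 bp and 1943. Of the 2944, 58.6% scored above the median of the H3K27ac list, against 82.8% of the peaks under shared sites. Most acetylated peaks, 2781, held 1 site, 154 held 2 and 9 held 3. The widest of the 9 peaks with 3 sites was chr15:65146768-65154875, at 8108 bp, whose 3 sites scored 81.4 to 199 and stood 1.85 to 3.38 kb from a SOX9 peak in the same acetylated peak. The peak at chr12:49500892-49506134 likewise held 3 sites and 1 SOX9 peak. The peaks at chr10:88420396-88423773, chr10:93449590-93452825 and chr12:33393997-33397151 held 3 sites each and no SOX9 peak, with SOX9 no nearer than 7.07, 38.5 and 6.99 kb.

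SOX6 sat well inside the acetylated peak at most sites. H3K27ac covered the whole SOX6 peak at 2471 sites (80.4%) and its centre at 2907 (94.5%), and the centre fell in the middle 50% of the acetylated peak at 1915 (62.3%). At shared acetylated sites the first and last of these shares were 91.0% and 73.3%. Under 50% of the SOX6 peak was covered at 157 sites (5.11%), and 25 sites overlapped H3K27ac by less than 50 bp. The least overlap, 8 bp, was at chr2:79341613-79341889, with a SOX6 score of 73.9. Those at chr1:54852136-54852258, chr17:9680416-9680645 and chr18:40244615-40245087 overlapped by 9 bp and that at chr19:72092646-72093076 by 12 bp, and their scores were 81.0, 121, 67.6 and 261. On the other side of this criterion, 53 SOX6-only peaks without H3K27ac or H3K4me3 had an H3K27ac peak closer than 100 bp. The closest, chr5:22996774-22997057, had a gap of 5 bp and a SOX6 score of 50.4.

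H3K4me3 was mostly distant, which the rule favours. The median gap to it was 17.0 kb, 2299 sites (74.8%) were at least 5 kb away, and 270 (8.78%) were within 1 kb. The closest site, chr20:19249907-19250103 with a SOX6 score of 73.6, had a gap of 1 bp. The excluded peak with the smallest H3K4me3 overlap, 4 bp, was chr4:144454715-144455286 with a score of 99.7. Of the acetylated peaks under the sites, 283 (9.61%) met H3K4me3 elsewhere along their length, and these were wide, with a median of 4068 bp.

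H3K4me1, which the rule did not use, was present at nearly all the sites. It met 2924 of the 3075, or 95.1% (95% Wilson interval 94.3% to 95.8%), against 74.3% of all SOX6 peaks. Intervals cover counting error only, and neighbouring sites are not independent. The share was 95% at shared acetylated sites, a difference of 0.0579 percentage points (95% Newcombe interval -0.966 to 1.05), with the SOX6-only sites higher on 10 and lower on 11 of 21 chromosomes. SOX9-only acetylated sites had 93.4%, a difference of 1.72 points (0.404 to 3.13), with the SOX6-only sites higher on 13 of 21 chromosomes, and the difference was 4.45 points with every list above its median score and 2.97 points by the SOX6 centre. With overlap of 1 bp, the 3 classes thus had shares between 93.4% and 95.1%. The comparison with shared sites turned on that overlap: when the SOX6 centre had to lie inside a peak, in every list, the SOX6-only sites were 5.31 points higher, with an interval that excluded 0.

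It was rarer at the other SOX6-only classes. Where H3K4me3 was also present, 61.6% of SOX6-only acetylated sites met H3K4me1, 33.5 points fewer (31.8 to 35.3). Without H3K27ac or H3K4me3 the share was 42.1%, which is 53.0 points fewer (51.2 to 54.7). Both differences had the same direction on 21 of 21 chromosomes and in each quintile of the SOX6 score. The size of the first differed with the input reads per Mb of the chromosomes. On the 4 chromosomes above 1.5 times the median chromosome, 97.6% of the sites met H3K4me1, against 77% with H3K4me3 and 40.3% with neither mark. On the other 17 these shares were 94.4%, 57.5% and 42.7%. The part of the input in these shares was not tested. The difference from sites with neither mark was 66.4, 48.5, 31.2, 31.7 and 47.2 points from the lowest to the highest quintile. It was 31.3 points with every list and 32.4 points with the SOX6 list above its median score. In the lowest quintile the sites with H3K4me1 were 93.2% (91.0% to 94.8%), against 57.5% with H3K4me3 and 26.8% without either mark. Among peaks of the highest quintile, H3K4me1 met 97.2% (94.0% to 98.7%), 63.6% and 50%, the last over only 112 peaks.

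**Figure D2:**
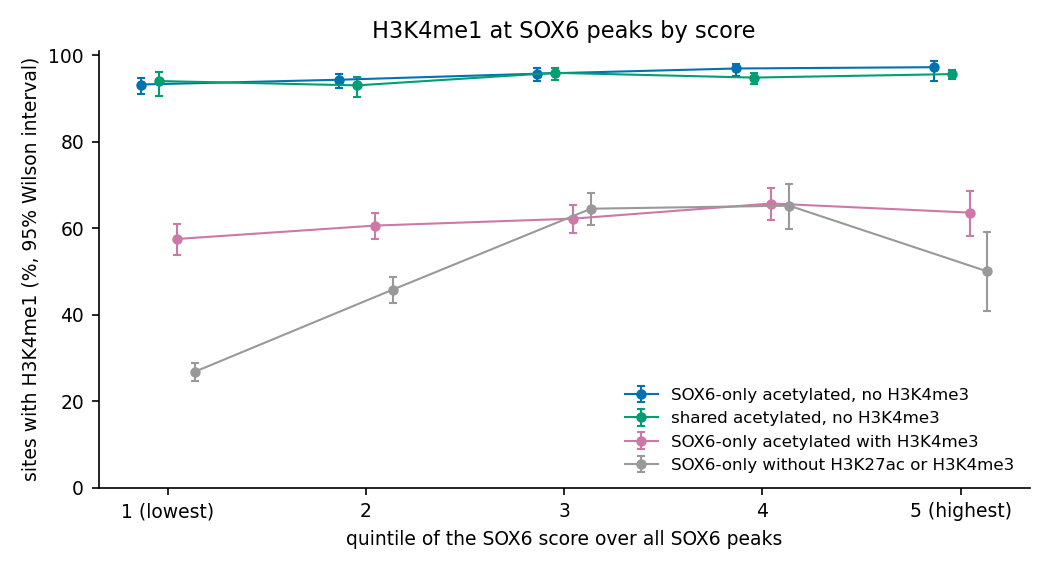
Share of SOX6 peaks that met an H3K4me1 peak (vertical axis, percent, bars are 95% Wilson intervals) by quintile of the SOX6 score, for 4 classes of site. SOX6-only and shared acetylated sites without H3K4me3 stay above 90% in every quintile, and the other classes lie at 65.7% or lower.

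Acetylated peaks under the sites carried H3K4me1 more often than acetylated peaks with no SOX peak. Among H3K27ac peaks that did not meet H3K4me3, H3K4me1 was present at 96.5% of the 2661 that held a SOX6-only site and at 74.8% of the 23557 with neither SOX6 nor SOX9, a difference of 21.6 points (20.7 to 22.5). The latter were narrower, with a median of 781 bp against 1476 bp. They also had lower H3K27ac scores, with a median of 114 against 396, and no split by that score was made. The comparison was repeated in quintiles of the H3K27ac width. Between 234 and 597 bp H3K4me1 met 86.0% of the former and 58.5% of the latter, which is 27.5 points apart (22.1 to 31.7). From 1771 bp upwards the values were 99.3% and 94.9%, or 4.38 points apart (3.31 to 5.37). The direction was the same in all 5 quintiles, and the difference was smaller among wide peaks.

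The score of the H3K4me1 peaks was intermediate. Of SOX6-only acetylated sites with H3K4me1, 66.8% met an H3K4me1 peak in the highest quintile of that list by score, against 73.8% of shared acetylated sites, a difference of -7 points (-9.18 to -4.83). Where H3K4me3 was present the share was 45.3%, and without H3K27ac or H3K4me3 it was 19.3%.

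The centre of SOX6 rarely lay in a dip of H3K4me1. Active enhancers often show H3K4me1 on both flanks of the bound factor and less of it at the centre. A centre was counted as in a gap when no H3K4me1 peak covered it and there was one within 1 kb on each side. This held for 25 of the 3075 sites, or 0.813% (0.551% to 1.20%), and for 231 of the 4287 shared acetylated sites, or 5.39% (4.75% to 6.11%). Other SOX6-only classes lay on both sides. The share was 12% (11% to 13.1%) at SOX6-only acetylated sites with H3K4me3. It was 0.23% (0.121% to 0.437%) at SOX6-only sites without H3K27ac or H3K4me3. Of these 3910 sites, 2264 met no H3K4me1 peak and lay at a median of 14266 bp from one. A gap needs such peaks on both sides, so few of them could be counted. The share in a gap over all SOX6 peaks is not given here. The difference of the SOX6-only acetylated sites without H3K4me3 from shared sites was -4.58 points (-5.34 to -3.83), and they had the lower share on 21 of 21 chromosomes. This difference had the same direction in every quintile of the SOX6 score. In the lowest quintile, where both classes had a median score of 54.7, 0.581% of SOX6-only and 3.87% of shared sites were in a gap, which differ by -3.29 points (-6.24 to -1.37). In the highest quintile it was 0 of 213 sites, which allows a share of up to 1.41% at 3 counts of the total and has a Wilson limit of 1.77%, against 8.12% (6.90% to 9.54%) of shared sites, but the shared sites of that quintile had a higher median score (505 against 367).

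**Figure D3:**
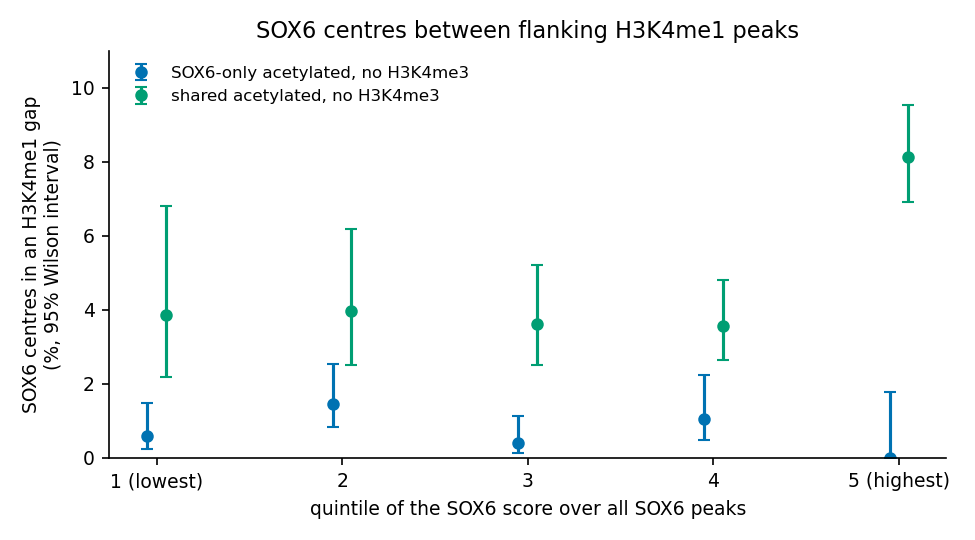
Share of SOX6 peak centres in a gap between flanking H3K4me1 peaks (vertical axis, percent, bars are 95% Wilson intervals) by quintile of the SOX6 score, for SOX6-only and shared acetylated sites without H3K4me3. The shares of SOX6-only sites lie between 0% and 1.45%, and those of shared sites between 3.56% and 8.12%.

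The layout of the marks around the centre shows the same contrast. At the centre, H3K4me1 peaks covered 94.2% of SOX6-only acetylated sites and 90.1% of shared ones, and H3K27ac peaks covered 94.5% and 97.9%. At 1 kb on the upstream side by coordinate, H3K4me1 covered 56.6% of the SOX6-only and 67.3% of the shared sites, and H3K27ac 48.2% and 66.3%. At 2 kb on that side H3K27ac had fallen to 26.6% and 36.6%. At 1 kb both marks thus covered fewer of the SOX6-only than of the shared sites. More SOX6-only sites lay under H3K4me1 than under H3K27ac at these offsets, while around shared sites both marks covered about equal shares. The classes were not matched for H3K27ac score, with medians of 506 under SOX6-only and 1943 under shared sites. Nor were they matched for the place of the SOX6 centre in the acetylated peak.

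**Figure D4:**
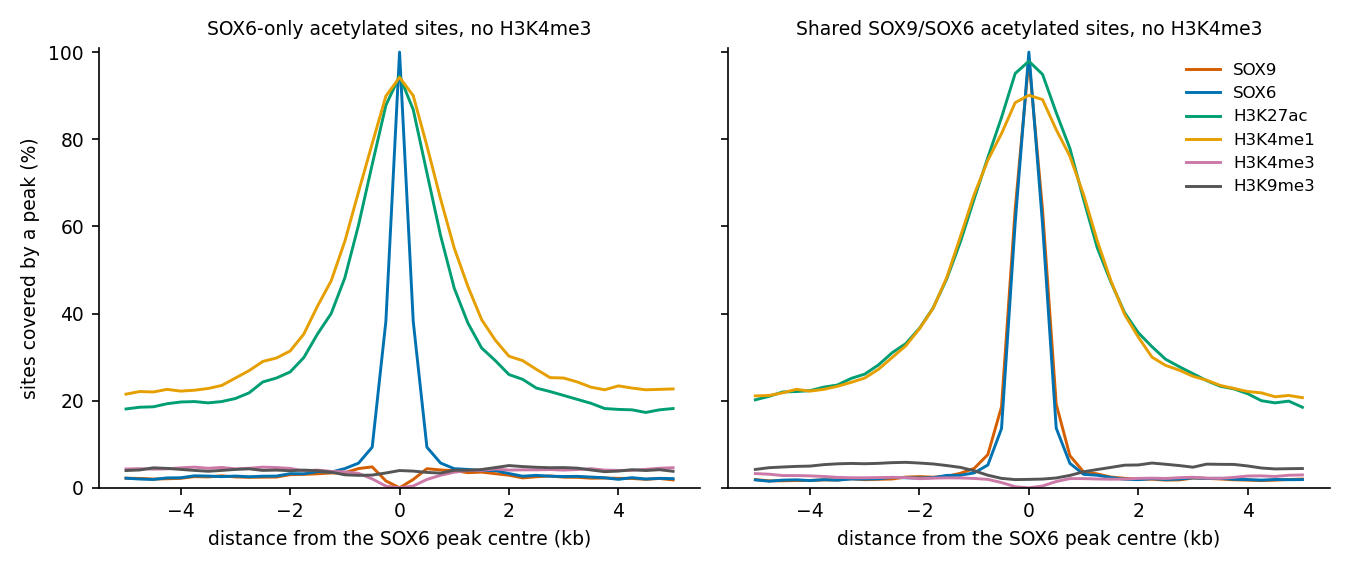
Share of sites covered by a peak of each of the 6 lists (vertical axis, percent) at each distance in kb from the centre of the SOX6 peak, with SOX6-only acetylated sites on the left and shared acetylated sites on the right. The lack of SOX9 and H3K4me3 at the left-hand centre is set by the rule, and H3K4me1 reaches 94.2% there and 90.1% on the right.

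The 151 sites (4.91%) without H3K4me1 were narrow and weak. Their median width was 261 bp and their median SOX6 score 73.9, against 424 bp and 86.6 at the sites with it, and their H3K27ac peaks had a median score of 253 against 567. An H3K4me1 peak lay within 1 kb of 77 of them (51.0%). They were no farther from SOX9, at a median of 12.8 kb against 13.6 kb. By width, H3K4me1 was present at 87.3% of the narrowest quartile of the sites, up to 299 bp, and at 98.7% of the widest quartile, from 569 bp. On chromosome X 61.8% of 34 sites met H3K4me1, the lowest share of any chromosome, and the next lowest was 83.8% of 37 sites on chromosome 20. The input reads per Mb of X and 20 were 0.595 and 0.712 times those of the median chromosome. Chromosome 15, at 0.705 times, had 90.1%. The part of the input in these shares was not tested.

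H3K9me3 was found at few of the sites, and over all scores more often than at shared ones. It met 145 of the 3075, or 4.72% (4.02% to 5.52%), against 3.01% of all SOX6 peaks. The share was 3.10% at shared acetylated sites, a difference of 1.61 points (0.719 to 2.55), with the SOX6-only sites higher on 14 and lower on 6 of 21 chromosomes. By score quintile, the difference from shared sites was 3.20 points (0.261 to 5.56) in the lowest, 0.847 (-1.59 to 2.95) in the second, 0.0130 (-1.96 to 1.97) in the third, 2.06 (0.175 to 4.32) in the fourth and 2.72 (0.169 to 6.74) in the highest, so its interval included 0 in the second and the third. Beside the peak the order differed: H3K9me3 covered the SOX6 centre at 3.97% of SOX6-only and 1.94% of shared sites, but 3.93% and 5.69% at 2 kb on the upstream side by coordinate, and 5.11% and 5.25% at 2 kb on the other side. At SOX6-only acetylated sites with H3K4me3 it was 0.895%, a difference of 3.82 points (3.04 to 4.67), higher on 18 of 21 chromosomes, and 2.20 points with every list above its median score. SOX9-only acetylated sites had 4.74% and SOX6-only sites without H3K27ac or H3K4me3 had 4.76%, with differences of -0.0239 points (-1.28 to 1.16) and -0.0416 points (-1.04 to 0.979).

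The H3K9me3 share moved with the input from chromosome to chromosome. The density of mismatch-free input reads was above 1.5 times that of the median chromosome on chromosomes 7, 9, 11 and 16, with ratios of 1.91, 2.03, 1.63 and 2.05. H3K9me3 met 12.6% of the sites on chromosome 7, 16 of the 128 on chromosome 16, 7.77% on 9 and 7.37% on 11, and 6.84% or less on every other chromosome. On chromosomes 14, 18 and X it met none of 92, 66 and 34 sites, which allows shares of up to 3.26%, 4.55% and 8.82%. Over the 21 chromosomes the share had a Pearson r of 0.855 and a Spearman rho of 0.758 with the relative input. This is a description of chromosomes within the same libraries, and the part of the input in the H3K9me3 calls was not tested.

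**Figure D5:**
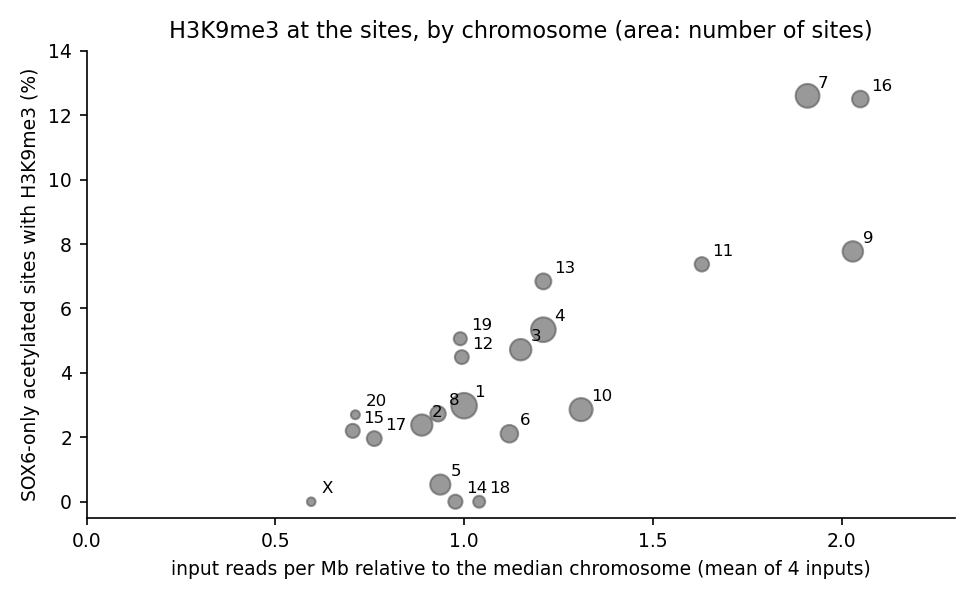
Share of SOX6-only acetylated sites that met H3K9me3 (vertical axis, percent) against input reads per Mb relative to the median chromosome (horizontal axis, mean of 4 inputs), with 1 point per chromosome and the area of a point showing its number of sites. Chromosomes 7 and 16 stand highest, with 33 of 262 and 16 of 128 sites, and all 4 chromosomes with a ratio above 1.5 lie at 7.37% or more.

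Within these groups of chromosomes the difference from shared sites was uneven. On the 4 chromosomes with high input, 71 of 678 sites (10.5%, 8.39% to 13.0%) met H3K9me3, against 6.76% of shared acetylated sites, a difference of 3.71 points (0.890 to 6.66). On the other 17, 74 of 2397 (3.09%, 2.47% to 3.86%) did, against 2.21%, a difference of 0.880 points (0.0533 to 1.77). Against SOX6-only sites without H3K27ac or H3K4me3 the direction depended on the group, at 4.20 points more (1.5 to 7.08) on the 4 chromosomes and -1.18 points (-2.18 to -0.157) on the 17. Between peaks above the median score of every list, the difference from shared sites was 0.640 points (-0.173 to 1.58) and its interval included 0.

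Over all chromosomes together, H3K9me3 was also more frequent at sites within 12500 bp of SOX9 than farther out. It met 4.86% of sites under 1 kb from a SOX9 peak, 8.72% (6.58% to 11.5%) at 1 to 5 kb, 5.64% from there to 12500 bp, 3.54% from there to 50 kb and 2.39% (1.26% to 4.47%) at 100 kb or more. On the 4 chromosomes with high input the shares were 15.7% under 1 kb and 6.25% at 100 kb or more. On the other 17 they were 1.81% under 1 kb, 6.70% at 1 to 5 kb and 3.70% from there to 12500 bp. Farther out they were 2.20% up to 50 kb, 2.80% at 50 to 100 kb and 1.60% at 100 kb or more. On these chromosomes the share under 1 kb was thus no higher than at most ranges beyond 12500 bp. The excess at 1 to 5 kb stood out on these 17 chromosomes, while on the 4 the share was high at all ranges up to 12500 bp. Of the 145 sites with H3K9me3, 87.6% met H3K4me1, against 95.1% of all the sites. H3K9me3 met 18 of the 151 sites without H3K4me1 and 127 of the 2924 with it. The 145 sites had a median gap to SOX9 of 5.71 kb, and their H3K9me3 peaks had a median score of 137, against 87.8 over that list.

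The acetylated peaks under the sites had H3K9me3 less often than acetylated peaks with no SOX peak. The share was 8.53% against 11.9%, a difference of -3.37 points (-4.46 to -2.18). The peaks under the sites had higher H3K27ac scores (median 396 against 114). No split by that score or by the input of the chromosomes was made. In the 4 lower quintiles of H3K27ac width the difference lay between -6.99 and -5.22 points, with intervals that excluded 0. Among peaks of 1771 bp or more it was -2.15 points (-4.53 to 0.405).

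Most of the sites had no other SOX6-only acetylated site within 12500 bp. Whether they lay closer together than their number per Mb would give was not tested. Another SOX6 peak of any kind lay within 12500 bp of 1773 sites (57.7%), and in 962 of these cases (54.3%) the nearest one overlapped SOX9. Over all SOX6 peaks, 55.9% shared no base with SOX9. The share of all SOX6 peaks with another SOX6 peak within 12500 bp is not given here, so 57.7% is a description only. Another SOX6-only acetylated site lay within 12500 bp of 727 sites (23.6%), and the median gap between such sites was 82.9 kb. Joining the sites over 12500 bp left 2348 single, with 274 pairs, 47 groups of 3, 7 of 4 and 2 of 5. The longest group of 5, chr14:91691345-91712378, also held 4 other SOX6 and 3 SOX9 peaks, and H3K27ac covered 96.2% of it. The other, chr12:38802719-38823708, was 20990 bp long, against 21034 bp, and held no SOX9 peak and no SOX6 peak besides its 5 sites, with H3K27ac over 33.1% and H3K4me1 over 67.8%. Its sites scored 76.3 to 253 and lay 11.2 to 31.7 kb from SOX9.

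Groups of 4 showed the same range of company. Those at chr12:17913332-17929939 and chr3:17599720-17614888 held 1 SOX9 peak each. That at chr16:1730309-1744408 held none, stood 43.9 to 56.2 kb from SOX9, and had H3K4me1 over 89.0% and H3K27ac over 25.6% of its 14.1 kb. All sites of the 5 named groups met H3K4me1 and none met H3K9me3.

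Joining H3K27ac peaks across gaps of up to 12500 bp gave 22284 regions, of which 2491 held a SOX6-only site. A SOX9 peak was present in the region of 1701 sites (55.3%), while at 589 sites (19.2%) it lay on the same H3K27ac peak. The other 1374 (44.7%) were in regions with no SOX9 peak, and 1037 sites (33.7%) were the only SOX peak of their region. At most 11 sites shared a region. Of SOX6-only acetylated sites with H3K4me3, 45% had SOX9 in their region. Whether most sites had SOX9 in their region turned on the settings, since the share was 44.2% with every list above its median score, 47% with no SOX9 peak within 1 kb and 42.4% with joining over 5 kb. Asking for no SOX9 within 1 kb removes the sites nearest to it, and joining over 5 kb gives no larger regions. Both of these settings therefore favour a lower share.

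The chromosomes differed in number of sites more than in their share. The share of SOX6 peaks that were SOX6-only acetylated sites went from 11.6% (9.22% to 14.5%) on chromosome 18 to 19.9% (16.3% to 24.2%) on chromosome 19. Chromosome 10 had the most sites per Mb, 2.18, followed by chromosome 7 with 1.83, and X had the fewest, 0.220. Over the 21 chromosomes the number per Mb had a rho of 0.690 with the relative input, and the share of SOX6 peaks a rho of 0.0559, both as descriptions. The part of the input in the number of called peaks was not tested.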

How the data were processed

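Chromatin immunoprecipitation with sequencing gave 1 peak list for each of 6 antibodies in RCS cells, and 4 input libraries gave reads per chromosome. Per the submitters' processing notes, CASAVA 1.8 and the rat build rn5 were used. The peak names in the files carry the name of MACS, but the sources used here give neither its version and settings nor the aligner. The score of each peak was deposited by the authors on a scale that is not stated, with a lowest value between 50 and 50.39 over the lists. The read counts of the inputs are raw counts deposited by the authors, per the file headers. The inputs held 36873004 to 131858579 reads, of which 53.4% to 53.5% aligned, and the depth of the immunoprecipitated libraries was not used here.

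Peak starts, which the files count from 0, are printed from 1. Overlap meant 1 bp or more, and distances are gaps between edges. Shares have Wilson and differences Newcombe 95% intervals, computed with Python 3.11.15 and numpy 2.4.6. The upper limit for a count of 0 is 3 counts of the total. The interval functions were tested on simulated lists. Relative input is the mean over the 4 inputs of reads without a mismatch per Mb over the median chromosome, with the last peak end as length.

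The sites and classes were chosen with earlier results of these data known. The named sites are the 10 of highest score, the 5 farthest from and the 5 closest to SOX9, the 5 with least H3K27ac overlap, the 5 largest groups and the 5 H3K27ac peaks with most sites, with the peaks nearest to the edge of each criterion added after their values were seen. The gap count, the split by H3K27ac width and the split by input were also added then.

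Motifs and genes at the sites were not analysed here, since no rn5 genome or annotation was used.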

Additional observations from a re-analysis of the deposited data

How the results depend on the processing

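The number of sites, 6 shares or medians over them and 7 differences between classes were recomputed with an overlap of 50% of the narrower interval, with the SOX6 centre inside the other peak, with every list or the SOX6 list alone above its median score, with no SOX9 or no H3K4me3 peak within 1 kb, with SOX6 peaks set to 400 bp, and, for regions and spacing, with joining over 5 kb. Leaving out the 4 chromosomes of high input was chosen after seeing the data, as were the differences between classes. For the 6 differences whose reported interval excluded 0, 48 recomputed values all kept their sign and 47 an interval that excluded 0. The H3K4me1 difference from shared sites, whose reported interval included 0, was recomputed 8 times: it took the opposite sign in 2, at -0.337 points with no H3K4me3 within 1 kb and -0.0862 points without the 4 chromosomes, both with intervals that included 0. The comparisons by score quintile, by H3K27ac width and with acetylated peaks free of SOX6 and SOX9, the H3K4me1 score shares and the nearest SOX9 peaks were not recomputed. The number of sites was 1772 with every list above its median and 1172 with the SOX6 list above it, and the median SOX6 score was then 176 and 161. Under these same 2 settings the share with H3K4me1 was 89.6% and 96.8%. The share with H3K9me3 was 3.98% with 50% overlap, 3.76% by centre, 2.60% with every list above its median and 3.09% without the 4 chromosomes. The median gap to SOX9 was 12.2 kb with 50% overlap, 11.8 kb by centre, 24.5 kb with every list and 16.5 kb with the SOX6 list above the median, 21.1 kb with no SOX9 and 15.5 kb with no H3K4me3 within 1 kb. In the same order, the share of sites with SOX9 in their joined region was 57.3%, 57.8%, 44.2%, 51.8%, 47% and 53.4%, and it was 42.4% with joining over 5 kb. Another SOX6 peak lay within 12500 bp of 45.5% with every list and 39.4% with the SOX6 list above the median, 51.1% with no SOX9 and 55.7% with no H3K4me3 within 1 kb, and within 5 kb of 42%. The H3K4me1 difference from shared sites became 4.56 points with 50% overlap, 5.31 by centre and 1.38 with the SOX6 list above its median, each with an interval that excluded 0. The H3K9me3 difference from shared sites was 0.640 points with every list above its median, and its interval included 0. Fewer peaks enter the settings by score. Where every list was cut, fewer SOX9 and H3K4me3 peaks were also left to exclude a site. Beyond that the cause was not tested. No paired analysis was possible because each antibody had 1 library and no value came from a test over samples. The depth of the immunoprecipitated libraries was not used here, so a missing peak cannot be told apart from one below the deposited scores.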
